A study of Homo sapiens with 2 samples.

Results

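The peptidyl transferase centre region of human 28S rRNA, taken here as positions 4101 to 4575 of the deposited numbering, covers the part of domain V of the large-subunit RNA in which peptide bonds form. All listed positions between those limits were taken as members, whatever their reads. The region spans 475 nt, and 402 of its positions are listed, among 5047 listed positions of 18S and 28S rRNA. What was counted are RNA fragments with a cyclic phosphate end, in 2 libraries from A549, an established line of human lung carcinoma epithelium. The mock library came from cells given the transfection reagent Lipofectamine alone, for a time that the labels do not give. The treated library came from cells transfected for 1 h with 1 µg/mL poly I:C, which is double-stranded RNA made by synthesis and stands in for viral RNA. Each condition is 1 library of 1 cell line, so there is no replicate spread, no test between conditions and no p-value. A difference in incubation time between the libraries cannot be told apart from one by poly I:C.

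The peptidyl transferase centre joins amino acids into protein, and it is built of rRNA. The P loop and the A loop of domain V hold the ends of the tRNAs in the peptidyl and aminoacyl sites, and an inner ring of conserved nucleotides surrounds the place of catalysis. The region is also rich in nucleotides that are modified during ribosome assembly, many of them with the help of snoRNAs. A cyclic phosphate end is left by RNase L, an endoribonuclease switched on indirectly in cells that sense double-stranded RNA. Such an end is left equally by other RNases and by chemical breakage. The labels name no sample without a given nuclease, so no end is assigned to an enzyme here.

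The region held a similar number of reads in both libraries, and a smaller share of the listed reads after poly I:C. It had 284231 reads in the mock and 295608 in the treated library, of 3079346 and 3764202 listed 18S and 28S reads. Its share was 9.23% of the mock reads (95% exact Clopper-Pearson interval 9.20 to 9.26) and 7.85% of the treated reads (7.83 to 7.88). With each library scaled to its listed total, the ratio of treated over mock was 0.851 (95% counting interval 0.846 to 0.855). The direction depended on the scaling: the ratio was 0.992 when only 28S reads were used and 1.06 when the median ratio of all compared positions was set to 1. All intervals cover the counting error of reads only and no spread between samples, because each condition is 1 library. The reads were amplified and carry no described molecular identifier, so the intervals may be too narrow for the counting error of molecules.

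For orientation, the 28S positions outside the region had a ratio of 0.859 (0.857 to 0.860). The 475 nt directly before the region stood at 1.42 (1.41 to 1.42), and the 475 nt directly after it at 0.714 (0.707 to 0.721). The difference from these neighbours could not be tested with 1 library per condition. At the first edge, position 4101 is not listed, position 4102 had 0 mock and 12 treated reads, and the nearest listed position before it, 4098, had 151 and 109. At the far edge, position 4575 had 131 mock and 159 treated reads, and position 4576, just outside, had 333 and 283.

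Of the 475 positions, 73 are not listed, which is 15.4%. Elsewhere in 28S rRNA, up to the 5070 nt annotated for RNA28SN5, 35.8% of positions are not listed. The listing is not particular to the region: it has 402 listed positions, the 475 nt directly before it 399, and the 475 nt directly after it 350. Every listed position has at least 5 reads in a library, and an unlisted one is read here as below that in both. The longest unlisted runs lay in the first stretch of the region, from 4145 to 4156, of 12 nt, and from 4129 to 4137, of 9 nt. The plot of reads along the region shows this thin beginning and 2 sites far above the rest.

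**Figure D1:**
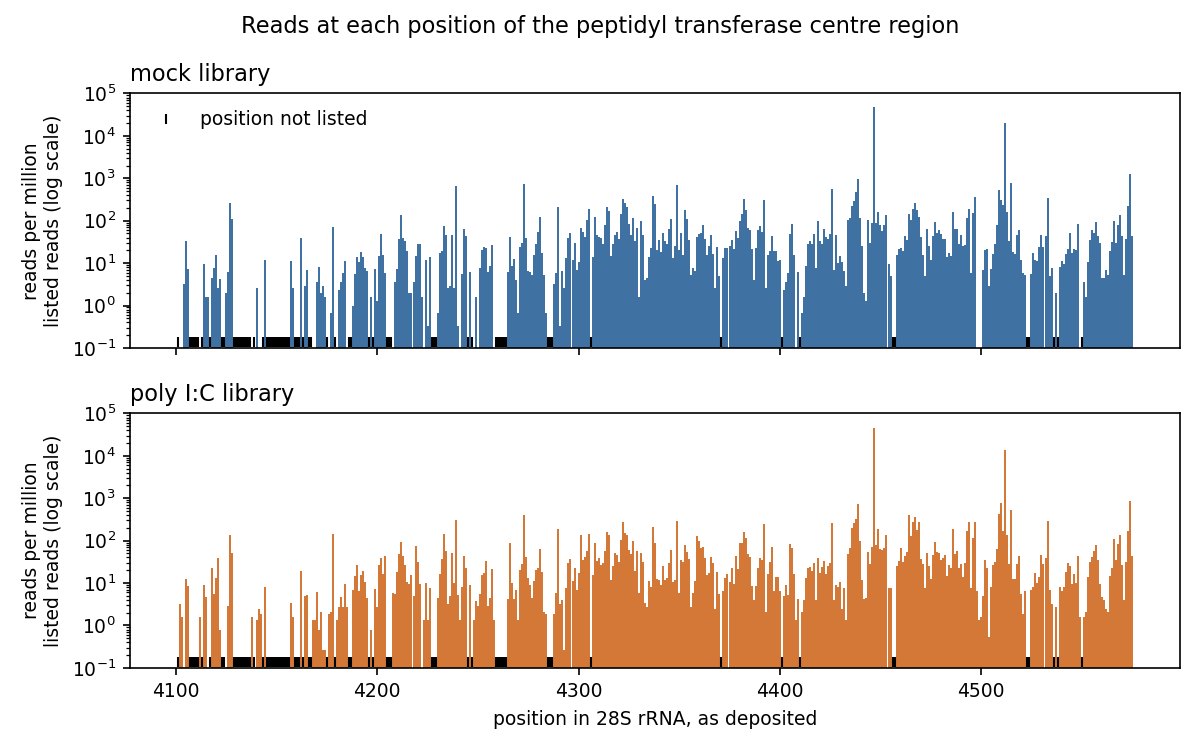
Reads per 1000000 listed reads (log axis) at each position of the region in the mock library (top) and the poly I:C library (bottom), with black ticks at the 73 positions that are not listed. In both libraries positions 4447 and 4512 stand far above all others, and the first stretch is thin.

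Position 4447 was the most frequent site of the region in both libraries. It had 147017 mock and 168157 treated reads, which is 51.7% (51.5 to 51.9) and 56.9% (56.7 to 57.1) of the reads of the region. Its ratio of 0.936 (0.929 to 0.942) turned to 1.09 when only 28S reads were used and to 1.16 under the median scaling, so no direction is given. The positions directly beside it held few reads: 4446 had 273 mock and 261 treated reads, and 4448 had 277 and 292. In the 5070-nt human sequence the nucleotide of this number is a cytosine known to carry a base methylation placed by NOP2, a nucleolar methyltransferase of large-subunit assembly. Whether the deposited numbering follows that sequence was not stated in the sources used here. The last listed 28S position, 5097, lies past its 5070 nt, so the reference behind the numbers is not simply that sequence, and every match of a position to a known nucleotide below carries this doubt.

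Position 4512 was second in both libraries, with 62991 mock and 52127 treated reads. That is 22.2% (22.0 to 22.3) and 17.6% (17.5 to 17.8) of the reads of the region, and a ratio of 0.677 (0.669 to 0.685). It was below 1 under the 3 other scalings too, at 0.667 to 0.840. Together both sites held 73.9% of the mock reads and 74.5% of the treated reads of the region. Without them the region had 74223 mock and 75324 treated reads, a ratio of 0.830 (0.822 to 0.839).

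The frequent sites were largely shared between the libraries. The 10 most frequent positions of each library had 7 members in common, namely 4447, 4512, 4574, 4439, 4515, 4273 and 4509. Position 4574 had 3852 mock and 3176 treated reads (ratio 0.674, interval 0.643 to 0.707). Position 4439, which lies 8 nt before 4447, had 2937 and 2718 (0.757, 0.718 to 0.798). Positions 4515 and 4273 had 2443 and 2245 mock reads, with ratios of 0.678 and 0.564.

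Among the 10 of the mock library alone were 4349, 4239 and 4426, with ratios from 0.414 to 0.471. All 3 were at least 2-fold lower under the main scaling but not under the median scaling. Among the 10 of the treated library alone were 4510, 4464 and 4467. The first 2 were at least 2-fold higher under all 4 scalings, while 4467 stood at 1.38 (1.26 to 1.50).

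A ratio was compared at the 237 positions whose reads in both libraries summed to at least 100. They held 98.9% of the mock and 98.8% of the treated reads of the region. Of them, 12 were at least 2-fold higher after poly I:C, which is 5.06%, against 8.18% of all compared 18S and 28S positions. Another 29 were at least 2-fold lower, which is 12.2%, against 10.1% of all compared positions. The counting interval lay wholly above 1 at 42 positions (17.7%, against 20.3% of all compared) and wholly below 1 at 115 (48.5%, against 50.7%). These shares lie near those of all compared positions and are no result about the region.

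The split into higher and lower positions moved with the scaling. In the region, higher positions were 29.3% of the calls under the main scaling. They were 55.6% (20 higher, 16 lower) when only 28S reads were used, and 67.6% (25 higher, 12 lower) under the median scaling. The calls over all compared positions moved the same way. They were 225 higher and 277 lower under the main scaling. With only 28S reads they were 283 and 138, and under the median scaling 318 and 90. With only 28S reads, 8.44% of the region's compared positions were higher, against 10.3% of all, and 6.75% lower, against 5.02%. Under the median scaling 10.5% were higher, against 11.6%, and 5.06% lower, against 3.27%. These differences were not tested. The median ratio of the 237 positions was 0.812, or -0.30 on the log2 scale, and that of all compared positions was 0.807, or -0.31. The median scaling shifts every log2 ratio up by 0.31, which brings the median of the region to 0.011. Lower is therefore meant relative to the listed totals.

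**Figure D2:**
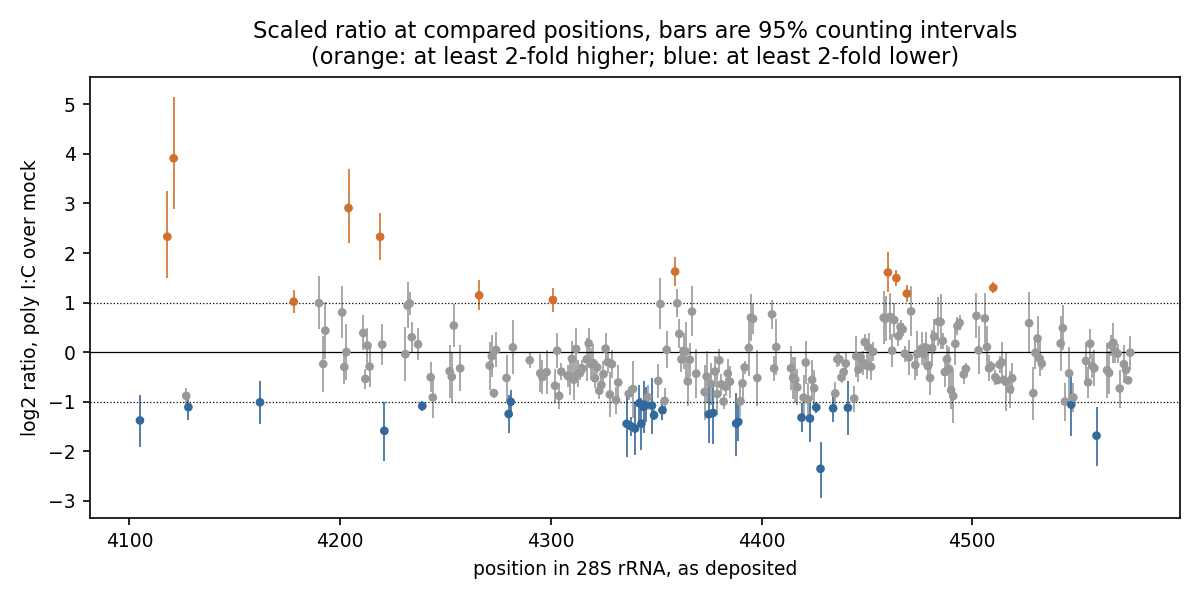
Log2 ratio of poly I:C over mock at the 237 compared positions, with 95% counting intervals, by position in 28S rRNA. The 12 positions at least 2-fold higher (orange) have their 4 highest values between 4118 and 4219, and 9 of the 29 lower ones (blue) lie between 4326 and 4350, or 4 of 12 under the median scaling.

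The highest ratios belonged to sites with few mock reads, which passed the read minimum mainly through the treated library, so that their low mock reads follow in part from the choice. Position 4121 had 8 mock and 147 treated reads, a ratio of 15.0 (7.43 to 35.5). It was the only one of the 237 compared positions at or over 10-fold, which is 0.422%, against 2.84% of all compared positions. Position 4204 had 18 and 165 reads, a ratio of 7.50 (4.60 to 12.97). The authors' deposited table gives unscaled folds of 17.4 and 8.95 for these positions.

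Position 4118, which lies 3 nt before 4121, had 14 mock and 86 treated reads, a ratio of 5.03 (2.84 to 9.58), and its 100 reads just met the read minimum. Position 4219 had 45 and 276 reads, a ratio of 5.02 (3.65 to 7.04). The 4 highest ratios thus lay between positions 4118 and 4219, near the thinly covered beginning of the region. These 4 sites were weak: the strongest of them in the treated library, 4219, held 0.0934% of the region's reads there.

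The other higher sites lay further along, and the most frequent of them was 4510. It had 967 mock and 2912 treated reads (2.46, interval 2.29 to 2.65) and was the fourth by reads in the treated library. It lies 2 nt before 4512, whose ratio was 0.677, and directly after 4509, which had 1621 and 1625 reads and a ratio of 0.820 (0.765 to 0.879). Sites next to each other thus differed in ratio by more than their counting intervals.

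A second group of higher sites followed position 4447. Position 4464 had 437 mock and 1506 treated reads (2.82, interval 2.53 to 3.14). Position 4469 had 372 and 1031 (2.27, 2.01 to 2.56), and position 4460 had 69 and 257 (3.05, 2.33 to 4.03). From 4451 to 4475, a 25-nt stretch singled out after its values were seen, 14 of 19 compared positions had a ratio above 1. Under the other scalings 13 to 19 did. As background, the median log2 ratio of all compared positions was -0.31 under the main scaling. It was -0.088 with only 28S reads, -0.33 with reads outside the region and 0.0014 under the median scaling. Most of all compared positions thus lay below 1, except under the median scaling, which sets their median near 1.

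The remaining higher sites were spread over the region. Position 4359 had 127 mock and 479 treated reads (3.09, 2.53 to 3.78), and 4360, directly after it, stood at 1.98 (1.64 to 2.41). Position 4266 had 125 and 338 (2.21, 1.80 to 2.74). The last 2 of the 12, positions 4178 and 4301, stood at 2.03 and 2.08.

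Several of the lowest ratios belonged to sites that passed the read minimum mainly through the mock library. Their low treated reads follow in part from the choice. The lowest ratio among the compared positions was at position 4428, with 142 mock and 34 treated reads, a ratio of 0.196 (0.131 to 0.286). It lies 2 nt after 4426, a frequent mock site that had 1753 and 990 reads and a ratio of 0.462 (0.427 to 0.4997). Position 4559 had 92 and 35 reads (0.311, 0.205 to 0.464). Neighbours again differed: position 4221 had 86 and 35 (0.333, 0.218 to 0.499), although 4219, 2 nt before it, was 5.02-fold higher. Of the 29 lower sites, 4 had at least 1000 reads over both libraries, namely 4239, 4338, 4349 and 4426.

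Lower sites lay close together in several places. Of the 18 compared positions from 4326 to 4350, 9 were at least 2-fold lower and 1 had a ratio above 1, and this stretch too was singled out after its values were seen. With only 28S reads 5 of the 18 were at least 2-fold lower, and under the median scaling 4. Over all compared positions of the region the lower share was 12.2%, 6.75% and 5.06% under these 3 scalings. Position 4349 had 2140 mock and 1084 treated reads (0.414, 0.385 to 0.446), and position 4338 had 746 and 324 (0.355, 0.311 to 0.405). Position 4340 had 107 and 45 reads, position 4343 had 100 and 45, and position 4336 had 69 and 31, with ratios from 0.344 to 0.368. Positions 4419, 4423, 4426, 4428, 4434 and 4441 were also at least 2-fold lower, as were 4375, 4377, 4388 and 4389. The last of the 10 lowest ratios were those of 4388, 4389 and 4105, at 0.369 to 0.385. Position 4239, among the frequent mock sites, had 2037 and 1173 reads (0.471, 0.438 to 0.506).

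**Figure D3:**
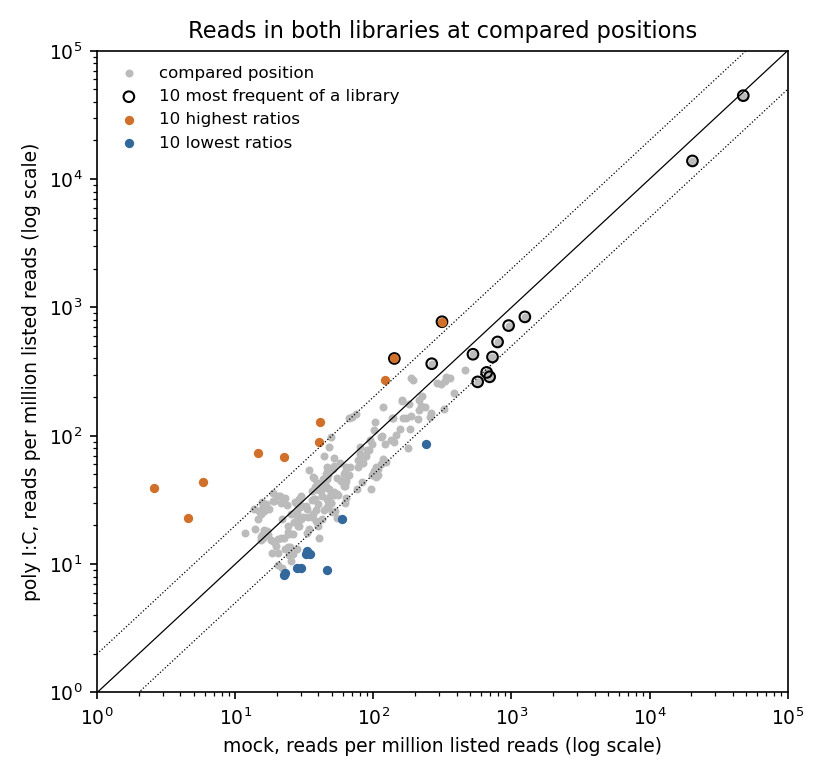
Reads per 1000000 listed reads in the mock library (x) and the poly I:C library (y), both on log axes, at the 237 compared positions, with equality (solid) and 2-fold lines (dotted). The 4 highest ratios lie at the left, where mock reads are few, and the 2 most frequent sites, 4447 and 4512, lie inside the 2-fold lines.

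Summed over stretches of 25 nt, no part of the region passed 2-fold. Of its 19 segments, 0 were at least 2-fold higher, against 27.0% of the 25-nt segments of 28S rRNA with listed reads. At least 2-fold lower were 0, against 2.94%. No read minimum was set for segments, so those elsewhere may hold few reads. In the region every segment held at least 250 mock and 178 treated reads. The shares may therefore set unlike segments side by side and are no result about the region. The segment from 4176 to 4200 was highest, with 557 mock and 1066 treated reads, a ratio of 1.57 (1.41 to 1.74). The segment from 4451 to 4475 followed at 1.44 (1.39 to 1.49), with 4959 and 8722 reads. The lowest was 4326 to 4350 at 0.513 (0.494 to 0.534), with 6752 and 4238 reads. These 3 segments lay on the same side of 1 under all 4 scalings. In all, 5 segments were above 1 and 14 below, or 8 and 11 under the median scaling.

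**Figure D4:**
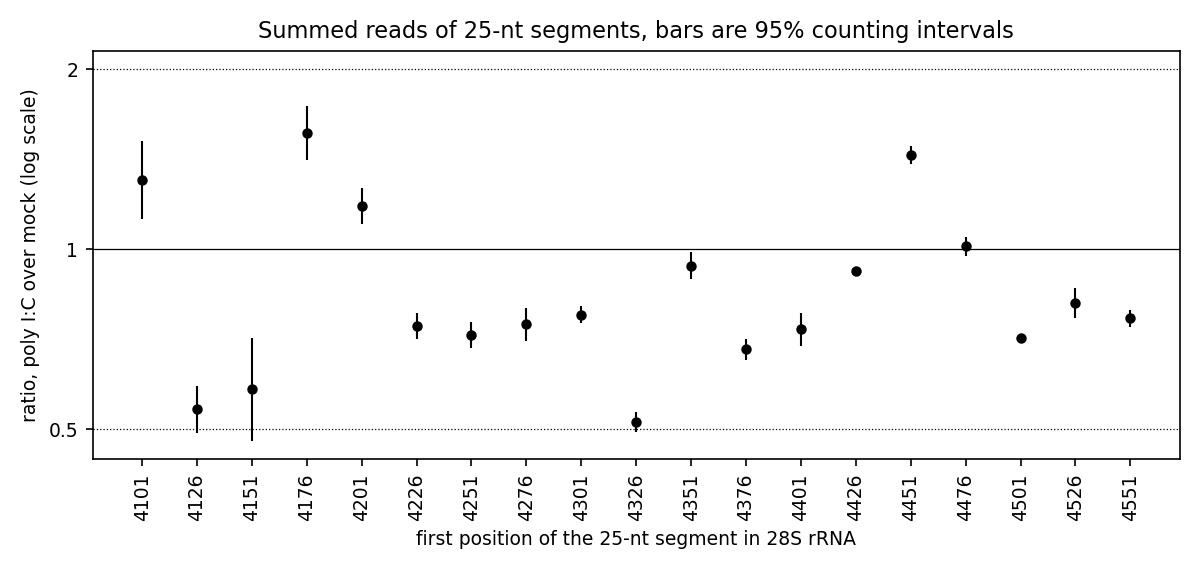
Ratio of poly I:C over mock (log axis) for the summed reads of the 19 segments of 25 nt, with 95% counting intervals and dotted lines at 2-fold. All segments lie between 0.513 and 1.57.

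Reads were also looked up at 4 nucleotides of the inner ring of the peptidyl transferase centre. The positions named in this and the following comparison come from general knowledge of human rRNA and not from the files, were picked after the values had been seen, and apply only if the deposited numbers follow the 5070-nt sequence in this stretch, although they run on to 5097. In the usual alignment with bacterial rRNA, 4397, 4452, 4531 and 4548 are inner-ring nucleotides. Position 4397 had 58 mock and 24 treated reads, a ratio of 0.339 (0.201 to 0.553), and lies past 2-fold lower but below the read minimum. Position 4452 had 248 and 247 (0.815, 0.680 to 0.976), and position 4531 had 73 and 108 (1.21, 0.891 to 1.65). Position 4548 had 253 and 164 (0.530, 0.433 to 0.648). The 3 with enough reads to be compared lay within 2-fold, and 4397 did not.

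Several positions with almost no reads bear the numbers of ribose-methylated nucleotides. As general background, ribose methylation puts a methyl group on the hydroxyl that a cyclic phosphate needs. Whether this bears on the missing reads was not tested. Of the ribose methylations known in this stretch of human 28S rRNA, positions 4196 (in the P loop), 4227, 4228, 4306, 4456, 4523 and 4536 are not listed. In the A loop, 4498 had 0 mock and 24 treated reads and 4499 had 0 and 5, directly after 4497 with 1097 and 1061. At 4306 the gap was sharp, since the median over the 10 positions within 5 nt was 155.5 mock and 150.5 treated reads. Position 4571 had 16 and 15 reads, against flanking medians of 279.5 and 295. At 4227, by contrast, the flanking medians were only 3.5 mock and 11 treated reads, so that its being unlisted says little.

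Other ribose-methylated numbers were not empty. Position 4392 had 957 mock and 946 treated reads, position 4494 had 572 and 1054, and position 4370 had 15 and 21. In these 3 cases the next position was lower: 4371 is not listed, 4393 had 8 and 8 reads, and 4495 had 18 and 29. The look at the next position was likewise chosen after the values had been seen. As background, 15.4% of all positions of the region are not listed, and the match was not tested.

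The order of the positions was alike in both libraries. Over the 402 listed positions Pearson's r was 0.925 for log2 of reads per 1000000 listed reads plus 1, and Spearman's rho was 0.928. Both libraries share the RNA molecule and its frequent sites, and positions are no replicates, so this is a description. Neighbouring positions had partly like ratios: over 179 pairs of adjacent compared positions Pearson's r of the log2 ratios was 0.451, and the median absolute difference was 0.41.

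The cumulative plot sets the spread of the ratios in the region beside that in the other rRNA. The SD of the log2 ratio across compared positions was 0.77 in the region, 1.49 over 1423 positions of the rest of 28S rRNA and 1.06 over 1090 positions of 18S rRNA. In the 475 nt directly after the region it was 0.60, lower than in the region itself, and in the 475 nt directly before it 1.43. The interquartile range of the ratio ran from 0.633 to 1.07 in the region and from 0.590 to 1.13 in the rest of 28S rRNA. At least 10-fold higher were 1 position of the region (0.422%), 59 of the rest of 28S rRNA (4.15%) and 18 of 18S rRNA (1.65%). Shares are of compared positions. In the 475 nt before the region there were 6 (2.75%), and in the 475 nt after it 0 of the 189 compared. These spreads describe positions of single libraries and were not tested.

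**Figure D5:**
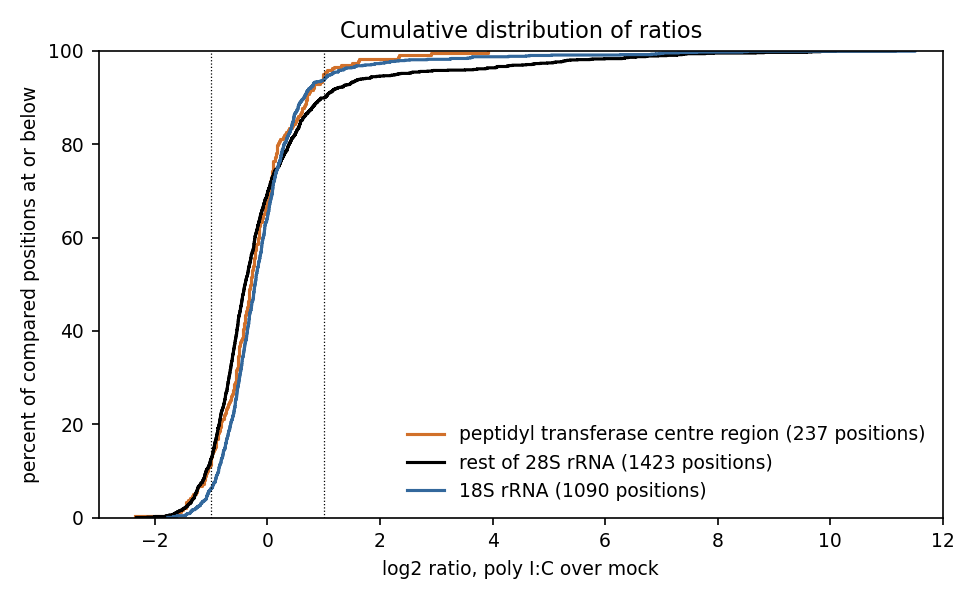
Percent of compared positions at or below each log2 ratio of poly I:C over mock, for the region, the rest of 28S rRNA and 18S rRNA, with dotted lines at 2-fold. The curves lie close in the middle, and the upper tail of the region ends at a ratio of 15.0 while those of the rest of 28S rRNA and of 18S rRNA run on to 2303 and 2918.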

How the data were processed

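The deposited table holds counts of reads per position of 18S and 28S rRNA in 2 libraries, unscaled and not pooled, per the file headers. The authors' deposited fold equalled the ratio of treated over mock reads, each plus 0.5, at all named sites. The authors' deposited score was not used. The submitters' processing notes name hg19. The aligner, the rRNA sequence and the meaning of a position (last nucleotide or not, counted from 0 or 1) were not stated in the sources used here, so no genome coordinate and no sequence is printed.

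Counts were divided by each library's listed 18S and 28S total. Ratios carry exact conditional binomial intervals at 95%. Against a library with 0 reads, a floor of 3 reads was used, which no compared position needed. Positions with a sum of at least 100 reads were compared, by a rule of size of 2-fold. Named are the 10 highest and 10 lowest ratios and the 10 most frequent positions of each library. Members, lists and rules were chosen with earlier results of these data known. Alternatives were other scalings, read minimums, thresholds and segment lengths. The calculation was tested on simulated data. Python 3.11.15, SciPy 1.17.1, pandas 2.3.3 and matplotlib 3.10.9 were used.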

Additional observations from a re-analysis of the deposited data

How the results depend on the processing

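The counts of positions moved with most choices. With scaling to 28S reads, positions of the region at least 2-fold higher numbered 20 and lower ones 16. They numbered 25 and 12 with the median scaling, and 11 and 33 with scaling to reads outside the region. Over all compared positions the same 3 scalings gave 283 and 138, 318 and 90, and 218 and 296. Those of the region numbered 29 and 48 at a minimum of 20 reads, 3 and 4 at 1000 reads, and 42 and 60 with no minimum. A 4-fold threshold gave 4 and 1, an interval wholly beyond 2-fold gave 9 and 9, and summing with neighbours gave 21 and 29. The median log2 ratio became -0.078 (28S reads), -0.32 (reads outside the region), 0.011 (median scaling), -0.28 (20 reads) and -0.34 (1000 reads). The region held 12.1% of the mock and 11.96% of the treated 28S reads, and 4.46% and 3.39% of listed reads without position 4447. Its ratio became 0.992, 0.838 and 1.06 under the 3 scalings in the same order as for the log2 median, and 0.760 without position 4447. Position 4447 held 52.3% and 57.6% of the reads of compared positions only. The 25-nt segments gave 0 higher and 0 lower under every scaling, as did 95-nt segments. At the 31 named sites the 3 scalings gave 93 ratios, of which 59 lay within the counting interval and 34 outside. Each scaling multiplies every ratio by a single factor, of 1.17, 0.985 or 1.24. Whether a ratio left its counting interval thus followed from the reads of its position. With such factors no ratio past 2-fold could change direction, and among the others 4447 and 4509 did. No paired analysis was possible because there is 1 library per condition, which also means that none could be left out. Few mock reads limit sites such as 4121. Beyond what an alternative shows by its construction, the cause was not tested.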

Other observations

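Among the 165 listed positions of the region below the read minimum, several had almost no mock reads, and those named here were chosen after their values were seen. Position 4208 had 0 mock and 22 treated reads, a ratio of 6.0 against a floor of 3 mock reads, with a lower limit of 4.48. Position 4498, in the A loop by the 5070-nt numbering, had a ratio of 6.54 against the same floor, with a lower limit of 4.92. Position 4240 had 1 mock and 20 treated reads, a ratio of 16.4 (95% counting interval 2.62 to 678), directly after the frequent mock site 4239, whose ratio was 0.471. Position 4217 had 6 and 58 reads (7.91, 3.42 to 22.4) and 4216 had 6 and 36 (4.91, 2.05 to 14.3), both within 3 nt of 4219. In the other direction, position 4171 had 25 mock and 3 treated reads (0.0982, 0.0190 to 0.322). The listed positions with 0 reads numbered 22 in the mock and 4 in the treated library. A position is listed only with at least 5 reads in a library, and the treated library had more listed reads (3764202 against 3079346). The same counts over all listed positions were not made, so these are no result about the region.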
